A study of Homo sapiens with 43 samples.

Results

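The light freCLIP fraction of cells with Q157R U2AF1 was compared with that of cells with wild-type (WT) U2AF1, over 5 libraries of the 43 samples in the series. freCLIP is a form of eCLIP in which RNA crosslinked to a protein is immunoprecipitated, separated by size on a gel and sequenced by size fraction. The light piece of the membrane ran from 37 to 65 kD and the heavy piece from 65 to 110 kD. All cells were HEL, a human erythroleukemia line. The Q157R group (replicates 2 and 3) stably expressed U2AF1 with the Q157R substitution, and the WT group (replicates 2, 3 and 4) stably expressed unmutated U2AF1. Both groups had received doxycycline at 1 µg/ml for 48 hours, and 12 µg of anti-FLAG antibody was used in the pull-down. No uninduced library or library without antibody entered the comparison. HEL cells also hold their own U2AF1, and the labels say neither how many clones a line came from nor that the biological replicates were separate cultures, so p-values measure a spread that may be technical in part. Each of the 58347 rows of the table is 1 annotated gene. The rows described are the 52922 with counts in both light Q157R libraries (2064 rows) or in neither (50858 rows). The 5425 rows counted in 1 of these libraries were set aside, because the libraries agreed poorly. This choice uses the Q157R counts themselves, so the number of kept rows that differ is a description and supports nothing.

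U2AF1 is the small subunit of the U2 auxiliary factor, a dimer that marks the 3' end of an intron for the spliceosome. U2AF2, the large subunit, binds the pyrimidine-rich tract, and U2AF1 contacts the AG dinucleotide at the intron's end and the bases beside it. Substitutions of U2AF1 recur in myelodysplastic syndromes and acute myeloid leukaemia. Those at S34 are known for a changed preference at the base before the AG, and those at Q157, in the second zinc finger, for a changed preference at the first base of the exon.

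Of 338 rows lower in Q157R, 128 had exons across an exon start of a gene on the other strand, and exon starts opposite 6 such rows are shown first because a U2AF1 site lies at the start of an exon. Each is the first 20 bases of an exon of the gene opposite a row called lower in Q157R, 5' to 3' on that gene's own strand, from GENCODE release 29 transcripts (GRCh38), with the exon's first base in capitals. CLK3 faces EDC3, SEC22C faces NKTR, PKD2L2 faces FAM13B, STX5-DT faces WDR74, MYCBP2-AS1 faces MYCBP2 and WNT2B faces ST7L.
EDC3 at chr15:74640600-74640619 (minus strand): Actctggcctggttgtccca
EDC3 at chr15:74635607-74635626 (minus strand): Gttgaatcccaaaaatgttc
NKTR at chr3:42600984-42601003 (plus strand): Ctcttgccgccacctcggtc
FAM13B at chr5:137940329-137940348 (minus strand): Gaatgcccagaaagaggatc
WDR74 at chr11:62833918-62833937 (minus strand): Ggcgtctactgggctgtctg
WDR74 at chr11:62833112-62833131 (minus strand): Gatgagccccaagagcctca
WDR74 at chr11:62833655-62833674 (minus strand): Gtttatctcaagtctcaatt
MYCBP2 at chr13:77076830-77076849 (minus strand): Gtatttggaaagctcatctc
MYCBP2 at chr13:77077368-77077387 (minus strand): Gttgatctggattccaggca
MYCBP2 at chr13:77081974-77081993 (minus strand): Gtgctggagtctcaaattca
ST7L at chr1:112526092-112526111 (minus strand): Gtgctgggactctggtgccc
Up to 3 exon starts are shown per facing gene named here, those in the most transcripts, and starts of other facing genes are left out. The starts shown are richer in G as first base than the whole set, so they do not represent it. Of 265 exon starts opposite lower rows 54.7% had G, against 49.4% of 2989 opposite all tested rows of the kept set. Counts are per row, so the reads of a row were not placed at any of these junctions.

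The 2 Q157R libraries held fewer rows than the 3 WT libraries. They had 38415 (replicate 2) and 135596 (replicate 3) gene counts, against 78987, 324150 and 172896 in WT replicates 2, 3 and 4. Rows with at least 1 count numbered 4619 and 4934 in Q157R libraries, against 6683, 11225 and 8580 in WT libraries. Drawn down to 38415 counts each, the Q157R libraries were expected to hold 4619 and 3551 rows and the WT libraries 5742, 7103 and 6202, so the WT libraries held more rows at equal depth. In the heavy fraction the same draw gave 8066 and 7462 rows in Q157R libraries and 8010 to 8538 in WT libraries. The Q157R pair shared 2064 rows, which are 44.7% of the rows of replicate 2 and 41.8% of those of replicate 3. Over the 2916 rows with at least 10 counts together, their Spearman coefficient was -0.05, against 0.20 to 0.31 for the WT pairs and 0.58 for the heavy Q157R pair. Of the rows set aside, 2555 had counts only in replicate 2 and 2870 only in replicate 3, the highest with 662 counts, and 36.4% had a single count. Among rows kept through both libraries, 411 (19.9%) had exactly 1 count in at least 1 of them. In RNA-seq of the same lines, U2AF1 was at 21.5 and 15.2 CPM in Q157R libraries and 19.1 and 11 CPM in WT libraries, with overlap, and a near-identical annotated copy of the gene could share its reads. In the same libraries, 7 erythroid and megakaryocyte markers (GATA1, TAL1, KLF1, HBG1, HBG2, ITGA2B and GP9) stood at 42.6 CPM or more in all 4 induced libraries. CD3E, MS4A1, PAX5, EPCAM and COL1A1 stood at 0.353 CPM or less.

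**Figure D1:**
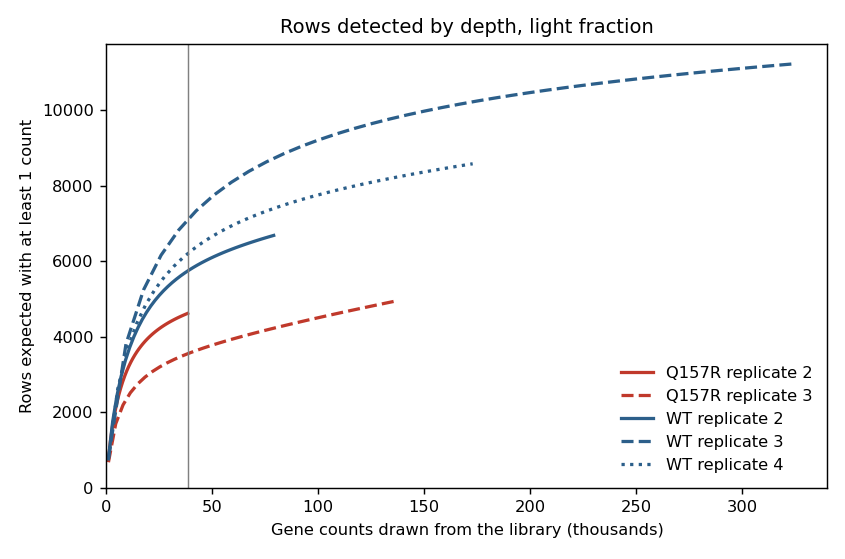
Rows expected with at least 1 count (y axis) when a given number of gene counts (x axis) is drawn from each light library; each curve ends at the library's own depth and the grey line marks 38415 counts. Both Q157R curves run below all 3 WT curves at that depth, with 4619 and 3551 rows against 5742 to 7103.

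A row's count cannot be read as RNA of the named gene alone. Antisense-class rows took 29.1% and 28.6% of gene counts in Q157R light libraries and 26.8% to 28.5% in WT light libraries, against 0.469% to 0.529% in the RNA-seq libraries. Rows with exons opposite an exon start of another gene are 9.18% of all rows, and took 48.1% and 46.9% of Q157R counts and 46.2% to 50.2% of WT counts, against 16.8% to 17% in RNA-seq. Among 8372 nuclear protein-coding rows that face another gene, light counts followed the RNA level of the facing gene more closely (Spearman 0.52) than that of the row's own gene (0.22). Where several genes face a row, the facing gene taken was the one with the highest RNA level, which the row's own gene had no counterpart for. This is a description across genes, which are not independent. The mitochondrial rows showed the same order. Rows of the strand that encodes MT-ND6 took 60.8% and 71.4% of mitochondrial counts in Q157R libraries and 70.5% to 83.8% in WT libraries, against 0.884% to 3.17% in RNA-seq. The strand setting used in counting is not given in the sources used here, so reads of a row and of a gene that faces it cannot be told apart. The facing gene is named for some of the rows described, chosen in the same way, so a row may also face genes that are not named.

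Of 6833 rows with enough counts to test, 92 were higher and 427 lower in Q157R light libraries at an adjusted p under 0.05 by edgeR's quasi-likelihood test, that is 1.35% and 6.25% of rows and 7.6% together. The fit took its spread from all 17 freCLIP libraries, heavy ones included. Heavy Q157R and WT pairs agreed better (Spearman 0.58 to 0.73) than light ones (-0.05 to 0.31). The spread may thus be too small for the light libraries and the adjusted p values too low, which was not tested. For SEC22C the edgeR adjusted p was 2.65e-05 in this fit and 0.00985 with the 8 light libraries alone. Among the 4194 tested rows of the kept set, 47 were higher and 338 lower, together 385 (9.18%), and nothing is read from that share, since the row rule used these counts. Of the 338, 277 were at 0 in both Q157R libraries and 61 were counted in both. The median log2 fold change was -1.19 over all tested rows, -6.21 over the 2265 tested rows at 0 in both Q157R libraries and -0.06 over the 1929 counted in both. A lower row in a bulk library may reflect fewer cells with the RNA, less RNA per cell or less RNA bound, which cannot be told apart here.

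These counts differed between fits. Fitted with the 8 light libraries alone, 20 of 4945 rows were called (0.404%), all 20 in the same direction among the 519, and 14 of them in the kept set. Fitted with the 5 compared libraries alone, 0 of 3531 rows were called by edgeR, with 345 at an unadjusted p under 0.05. DESeq2 over the 17 libraries called 833 rows, and edgeR with size-factor (RLE) scaling called 365, of which 36.7% were higher, against 17.7% in the TMM fit. RLE moved the median of all tested rows to -0.80 and that of rows counted in both Q157R libraries to 0.33, and values below are on the TMM scale unless stated. Without Q157R replicate 2 the fit called 1318 rows, and without Q157R replicate 3 it called 137. Of the 385 kept rows called, 324 were called in the same direction without replicate 2 and 38 without replicate 3.

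**Figure D2:**
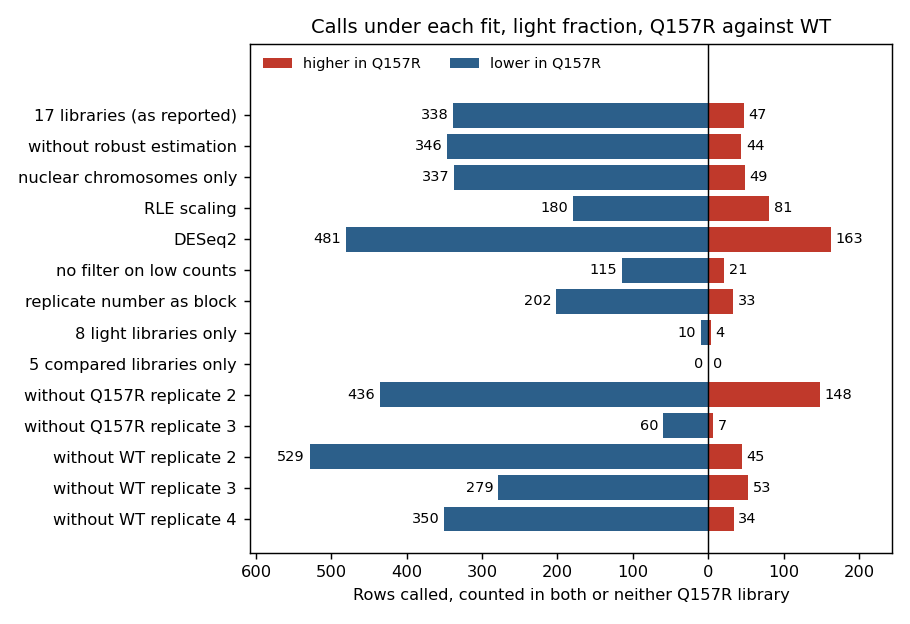
Number of kept rows called at an adjusted p under 0.05 under each fit (one bar pair per fit), higher in Q157R to the right of 0 and lower to the left. The 17-library fit gave 47 and 338, the 8 light libraries alone 4 and 10, and the 5 compared libraries alone 0 and 0.

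The kept rows called both with all 17 libraries and with the 8 light libraries alone were named after their values were seen. Of these 14 kept rows, 13 lay outside the Y chromosome, of which 10 were lower and 3 higher in Q157R. The called rows outside the kept set or on the Y chromosome are not described. With both Q157R libraries in the fit, all 10 lower rows stayed called, each with its direction, under every alternative that tested them. The exception was the fit of the 5 compared libraries. They also kept their direction when 1 Q157R library was left out. For rows without a count in either Q157R library, that removal cannot change the Q157R counts. The fit of the 8 light libraries was part of the choice of these rows, and the other alternatives reuse the same counts. The kept calls are thus a description and support nothing further. Of the 10 lower rows, 4 were counted in both Q157R libraries.

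CLK3, a kinase that phosphorylates SR splicing factors, lies on chromosome 15 (74598500 to 74645414, plus strand) and faces EDC3, an mRNA decapping factor. It had 17 and 28 counts in Q157R libraries, against 84, 503 and 262 in WT libraries. Scaled by library size, this was 278 ± 101 CPM in Q157R (SD, n = 2) and 1620 ± 545 CPM in WT (SD, n = 3), with no overlap. The row was 5.99-fold lower in Q157R (log2 fold change -2.58, SE 0.44, edgeR adjusted p = 0.000362), and in the heavy fraction its log2 fold change was -0.47 (SE 0.36, adjusted p = 1).

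ZACN, a zinc-activated ion channel gene on chromosome 17 that faces SRP68, a subunit of the signal recognition particle, had 7 and 17 counts in Q157R libraries, against 55, 233 and 103 in WT libraries. Its level was 144 and 126 CPM in Q157R libraries, against 658, 950 and 704 CPM in WT libraries, and the groups did not overlap. The log2 fold change was -2.53 (SE 0.50, edgeR adjusted p = 0.00163). Own-gene RNA was near 0 for ZACN, with means of 0.164 CPM in Q157R libraries and 0.353 CPM in WT libraries, whereas SRP68 averaged 127 CPM in Q157R RNA-seq and 131 CPM in WT RNA-seq.

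WNT2B, a secreted signalling ligand, and MYCBP2-AS1, a noncoding transcript across the ubiquitin ligase gene MYCBP2, fell further. WNT2B had 3 and 1 counts in Q157R libraries, against 22, 272 and 59 in WT libraries (log2 fold change -4.54, SE 0.80, edgeR adjusted p = 0.000495). MYCBP2-AS1 had 1 and 7 counts in Q157R libraries, against 51, 231 and 72 in WT libraries (log2 fold change -4.05, SE 0.73, edgeR adjusted p = 0.000604). In both rows every Q157R library lay below every WT library. WNT2B's own RNA was low, with means of 1.68 CPM in Q157R libraries and 0.302 CPM in WT libraries, and its facing gene ST7L averaged 37.4 CPM in Q157R libraries and 39.5 CPM in WT libraries. MYCBP2 itself averaged 220 CPM in Q157R RNA-seq and 250 CPM in WT RNA-seq, a difference that was not called (log2 fold change -0.18, SE 0.16, edgeR adjusted p = 1).

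The other 6 lower rows had no count in either Q157R library. For these the fitted fold change rests on a prior count, so a bound is given from 3 counts over both Q157R libraries together. Here and below such a bound covers counting error only, with each count taken as a separate molecule. It does not cover the spread between libraries, and the Q157R libraries agreed poorly. SEC22C, a gene of transport between the endoplasmic reticulum and the Golgi, had 0 and 0 counts in Q157R libraries, against 29, 125 and 72 in WT libraries, at least 29.1-fold lower in Q157R (edgeR adjusted p = 2.65e-05). In the heavy fraction it was counted in every library, with 33 and 125 counts in Q157R and 47, 32, 211 and 198 in WT. PKD2L2, of the polycystin channel family, had 0 and 0 counts in Q157R libraries, against 30, 43 and 98 in WT libraries, at least 22.1-fold lower (edgeR adjusted p = 0.000152). STX5-DT, a divergent transcript beside STX5, had 0 and 0 in Q157R libraries, against 11, 113 and 47 in WT libraries, at least 22.1-fold lower (edgeR adjusted p = 0.000469). TCF7, a transcription factor of T cells and Wnt signalling that faces the ubiquitin ligase subunit SKP1, had 0 and 0 in Q157R libraries, against 23, 90 and 26 in WT libraries, at least 17.9-fold lower (edgeR adjusted p = 0.000224). The WT libraries all held these 4 rows, and the heavy Q157R libraries did too. AC012184.1, an antisense row opposite the sialyltransferase gene ST3GAL2, and MROH5 completed the set, at least 17.8-fold and 33.9-fold lower.

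RNA-seq did not show a matching change in the facing genes. FAM13B averaged 43.0 CPM in Q157R libraries and 50.7 CPM in WT libraries, WDR74 78.7 CPM in Q157R libraries and 80.9 CPM in WT libraries, SKP1 86.2 CPM in Q157R libraries and 87.2 CPM in WT libraries, and NKTR 180 CPM in Q157R libraries and 161 CPM in WT libraries. EDC3 averaged 66.6 CPM in Q157R libraries and 79.2 CPM in WT libraries. None of these 5 differences was called by edgeR (adjusted p = 1 for each), and 0 of 21300 genes were called in the RNA comparison as a whole, with 716 at an unadjusted p under 0.05.

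**Figure D3:**
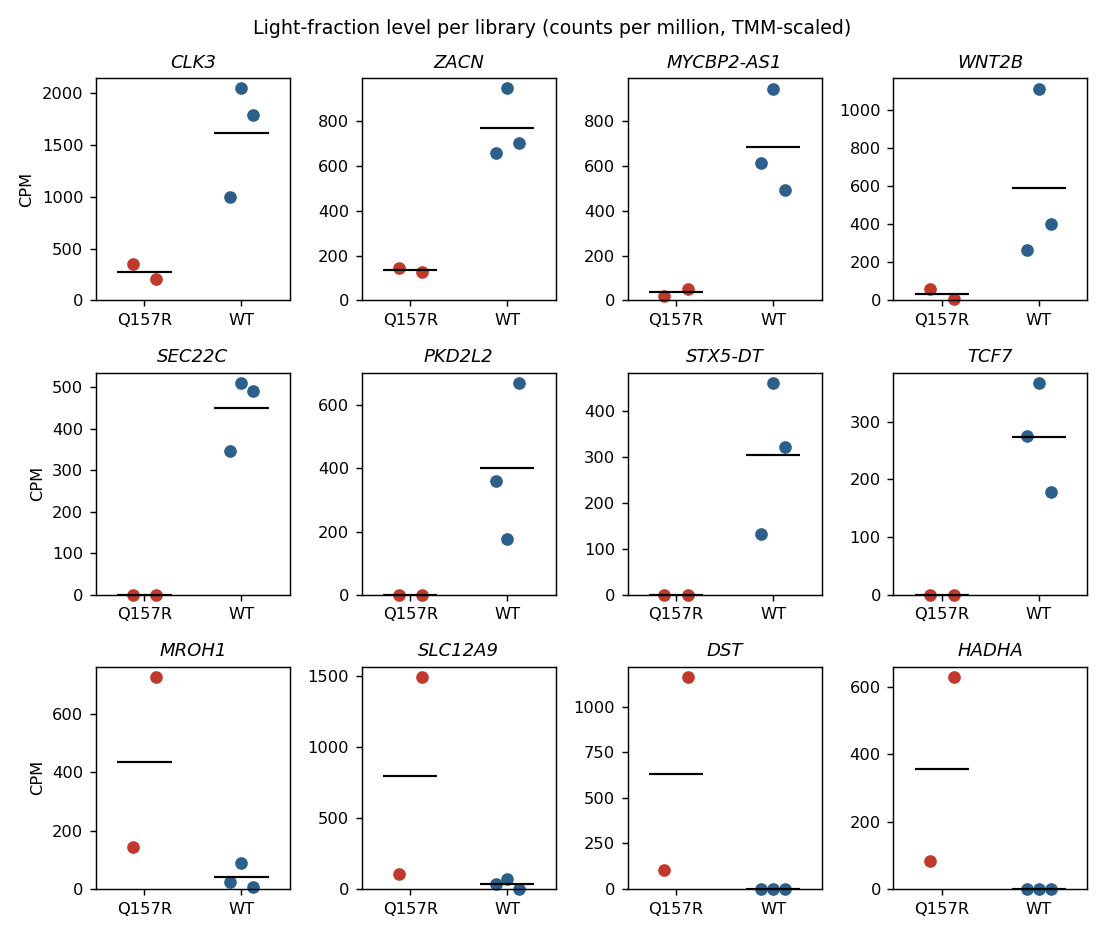
Light-fraction level (y axis, CPM after TMM scaling, each panel with its own scale from 0) of 12 rows, Q157R at left (2 libraries) and WT at right (3 libraries); points are libraries and bars are means. In the top and middle panels every Q157R point lies below every WT point, and in the bottom panels the higher Q157R point is replicate 3.

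Beyond these, the row rule named the largest calls whose libraries did not overlap. UBE2D4, a ubiquitin-conjugating enzyme, had 0 and 0 counts in Q157R libraries, against 3, 54 and 91 in WT libraries, at least 19.1-fold lower. PGRMC2, a membrane progesterone receptor component, had 0 and 0 in Q157R libraries, against 7, 95 and 46 in WT libraries, at least 19.1-fold lower. GPANK1 and GABRA3, a GABA receptor subunit, were each at 0 in Q157R libraries, against 30 to 54 counts and 27 to 52 counts in WT libraries, at least 15.7-fold lower each. BAZ2B-AS1, opposite the chromatin reader BAZ2B, was at 0 in Q157R libraries, against 15, 33 and 73 counts in WT libraries. GNL3, a nucleolar GTPase also known as nucleostemin that faces PBRM1, was at 0 in Q157R libraries, against 1, 95 and 54 in WT libraries, so WT replicate 2 was also near 0. The edgeR adjusted p of these 6 rows ran from 0.00092 to 0.0152, and none of the 6 was called with the 8 light libraries alone. The calls of BAZ2B-AS1 and GNL3 were also lost without Q157R replicate 3.

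Over all 277 called rows at 0 in both Q157R libraries, the WT counts summed to 26 to 263 per row with a median of 65. The median was 21 over all tested rows at 0 in both Q157R libraries and 33 over all tested rows. The row rule did not use the heavy libraries, though they entered the filter and the fit. In both heavy Q157R libraries 270 of the 277 called rows were counted. This compares with 1632 of the 2265 tested rows at 0 in both light Q157R libraries and 5662 of all 6833 tested rows. The called rows had more WT light counts than either set, and the part of that in their heavy counts was not tested. The median heavy log2 fold change of the 277 rows was -0.12, against -0.10 over all tested rows, and 0 were called in the heavy fraction. No row of the 6833 was called there (0.0%) by edgeR, with 149 at an unadjusted p under 0.05. These rows moved with the lower number of rows per count in the light Q157R libraries given above, and the part of that in the losses was not tested.

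The 61 lower rows counted in both Q157R libraries had log2 fold changes from -4.64 to -1.03, with a median of -2.29. In 57 of them (93.4%) the groups did not overlap, against 27.0% of the 1929 tested rows counted in both and 22.8% of all tested rows. The rows were called on these same libraries, so a high share follows from the call and supports nothing. The 5 named here were chosen after their values were seen, and none was called with the 8 light libraries alone. DDX5, an RNA helicase that faces CEP95, had 10 and 8 counts in Q157R libraries, against 59, 105 and 120 in WT libraries (log2 fold change -2.43, edgeR adjusted p = 0.0174). MSH6, a mismatch repair protein that faces FBXO11, had 8 and 21 in Q157R libraries, against 41, 197 and 121 in WT libraries (log2 fold change -2.15, edgeR adjusted p = 0.00255). FOXM1, a cell-cycle transcription factor that faces ITFG2, had 5 and 8 in Q157R libraries, against 18, 97 and 62 in WT libraries (log2 fold change -2.18, edgeR adjusted p = 0.0387). In each of these 3 rows all WT libraries exceeded both Q157R libraries, and the DDX5 and FOXM1 calls were lost without Q157R replicate 3. All 3 calls were lost without a filter on low counts, and that of FOXM1 also under RLE scaling and without WT replicate 3 or 4. UBXN11, opposite SH3BGRL3, had 8 and 24 in Q157R libraries, against 55, 341 and 170 in WT libraries (log2 fold change -2.64, edgeR adjusted p = 0.00139). MS4A2, a subunit of the high-affinity IgE receptor with no facing gene in the annotation, had 22 and 43 in Q157R libraries, against 102, 302 and 271 in WT libraries (log2 fold change -1.92, edgeR adjusted p = 0.00163). Heavy log2 fold changes of the 61 rows were below 0 in 39 and above 0 in 22, with a median of -0.17.

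Higher rows rested mainly on Q157R replicate 3. Its CPM exceeded that of replicate 2 in 40 of the 47 higher rows and was more than 3 times as high in 33, against 958 and 399 of the 1929 tested rows counted in both. DST, a cytoskeletal linker protein, had 103 and 1160 CPM in Q157R libraries, against 0, 0 and 0 in WT libraries (edgeR adjusted p = 0.00136). With the Q157R libraries pooled, it was at least 140-fold higher by the bound of 3 counts over the WT libraries. That pool rests mainly on replicate 3, so the bound is not a limit for replicate 2 alone. Heavy counts of DST were 0 and 0 in Q157R and 0, 1, 0 and 4 in WT. HADHA and HADHB, which face each other, encode both chains of an enzyme of mitochondrial fatty acid breakdown. The HADHA row had 4 and 85 counts in Q157R libraries, against 0, 0 and 0 in WT libraries (edgeR adjusted p = 0.00301). Its pooled bound, at least 76.7-fold higher, also rests mainly on replicate 3. RNA of HADHA itself averaged 80.8 CPM in Q157R libraries and 287 CPM in WT libraries (log2 fold change -1.83, edgeR adjusted p = 0.292). For both rows the lower Q157R library still exceeded all WT libraries, by 5 and 4 counts against 0. The HADHA call was lost without Q157R replicate 3 and with the 8 light libraries alone.

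SLC12A9, of the cation-chloride cotransporter family, had 5 and 202 counts in Q157R libraries, against 3, 17 and 0 in WT libraries (log2 fold change 4.44, SE 1.1, edgeR adjusted p = 0.0101). MROH1 had 7 and 98 counts in Q157R libraries, against 2, 22 and 1 in WT libraries (log2 fold change 3.31, SE 0.65, edgeR adjusted p = 0.00163). With DST, these were the 3 higher rows of the kept set, outside the Y chromosome, also called with the 8 light libraries alone. All 3 calls were lost without Q157R replicate 3. The S34F light libraries, set against the same WT libraries, gave MROH1 a log2 fold change of 4.35 (edgeR adjusted p = 5.76e-05).

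The remaining rows named by the rule among the higher calls had few counts in WT libraries. JUND, an AP-1 transcription factor, had 6 and 12 counts in Q157R libraries, against 0, 0 and 0 in WT libraries, at least 15.5-fold higher. PARP9, which faces DTX3L, had 2 and 22 in Q157R libraries, against 0, 0 and 0 in WT libraries, at least 20.7-fold higher. FUT11, a fucosyltransferase, had 3 and 15 in Q157R libraries, against 0, 0 and 0 in WT libraries, at least 15.5-fold higher. As above, the bounds for JUND, PARP9 and FUT11 pool both Q157R libraries. None of these 3 had a count in any WT library, whereas heavy WT libraries held 0, 0, 15 and 2 JUND counts, 3 to 11 PARP9 counts and 5 or 6 FUT11 counts. The 3 calls were lost without Q157R replicate 3, with the replicate number as a block and without a filter on low counts. Those of JUND and FUT11 were also lost without WT replicate 3 or 4. DESeq2 gave these 3 rows no adjusted p, so it did not call them. IQCH, opposite AAGAB, had 7 and 80 in Q157R libraries, against 0, 0 and 4 in WT libraries (log2 fold change 5.28, SE 1.3, edgeR adjusted p = 0.00801). BCL2L13, of the BCL2 family, had 4 and 66 in Q157R libraries, against 0, 4 and 0 in WT libraries (log2 fold change 5.26, SE 1.5, edgeR adjusted p = 0.0262). BAG6, a chaperone of membrane and misfolded proteins, had 4 and 67 in Q157R libraries, against 1, 5 and 0 in WT libraries (log2 fold change 4.62, SE 1.5, edgeR adjusted p = 0.046). SHF had 7 and 44 in Q157R libraries, against 0, 4 and 0 in WT libraries (log2 fold change 4.99, SE 1.6, edgeR adjusted p = 0.0458). In all 4 the higher library was replicate 3, and all 4 calls were lost without it. BCL2L13, SHF and BAG6 were also not called without WT replicate 4, SHF and BAG6 without WT replicate 2 or with the block, and BAG6 without WT replicate 3. Without a filter BCL2L13, SHF and BAG6 were not called.

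Counts of the Q157R libraries were closer in GBA2, a glucosylceramidase that faces CREB3, with 32 and 51 counts in Q157R libraries, against 0, 13 and 2 in WT libraries (log2 fold change 4.28, edgeR adjusted p = 0.0079). CFAP57, which faces EBNA1BP2, had 26 and 40 in Q157R libraries, against 6, 10 and 0 in WT libraries (log2 fold change 3.52, edgeR adjusted p = 0.0279). Both were named after their values were seen, as rows in which the Q157R libraries held similar counts, and the CFAP57 call was lost without WT replicate 3 or 4 and without a filter. USP39, a protein of the tri-snRNP that faces C2orf68, had 10 and 120 in Q157R libraries, against 4, 21 and 15 in WT libraries (log2 fold change 2.79, edgeR adjusted p = 0.0103), and its call was lost without Q157R replicate 3.

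None of the 5 most abundant rows was called. TTI2 led every light library, with 570 and 1549 counts in Q157R libraries, against 1036, 3059 and 1722 in WT libraries, or 11600 ± 197 CPM in Q157R (SD, n = 2) and 12200 ± 380 CPM in WT (SD, n = 3). Its log2 fold change was -0.08 (SE 0.32, edgeR adjusted p = 0.907), and 0.30 under RLE scaling. MT-ND6, a mitochondrial complex I subunit, stood at 7010 ± 1940 CPM in Q157R (SD, n = 2) and 9770 ± 695 CPM in WT (SD, n = 3). U47924.2, an antisense row opposite C12orf57, stood at 6140 ± 450 CPM in Q157R (SD, n = 2) and 9020 ± 2210 CPM in WT (SD, n = 3). Neither was called, with an edgeR adjusted p of 0.208 for MT-ND6 and 0.163 for U47924.2. LENG9, opposite LENG8, had 140 and 1267 counts in Q157R libraries, against 325, 2511 and 1420 in WT libraries (log2 fold change -0.37, SE 0.57, edgeR adjusted p = 0.693, and 0.04 under RLE scaling). AC006064.4, an antisense row opposite GAPDH, had 319 and 764 in Q157R libraries, against 202, 2046 and 1392 in WT libraries (log2 fold change -0.15, SE 0.36, edgeR adjusted p = 0.821, and 0.28 under RLE scaling).

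Class shares differed by at most 1.16 percentage points between the genotypes. Protein-coding rows held 55.1% and 56.2% of gene counts in Q157R libraries, against 57.0%, 56.0% and 54.7% in WT libraries. Antisense rows averaged 28.9% ± 0.398 in Q157R (SD, n = 2) and 27.7% ± 0.846 in WT (SD, n = 3), the only class of 6 whose libraries did not overlap. Pseudogene rows averaged 6.37% ± 0.643 in Q157R and 7.06% ± 0.392 in WT, and lincRNA rows 3.83% ± 0.331 in Q157R and 3.59% ± 0.496 in WT. Mitochondrial rows averaged 1.35% ± 0.0618 in Q157R and 1.48% ± 0.0731 in WT. With 2 against 3 libraries the two-sided exact permutation test cannot give a p below 0.2. It gave that value for antisense rows, and 0.4 to 1 for the other 5 classes, with adjusted p of 0.8 to 1 over the 6.

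**Figure D4:**
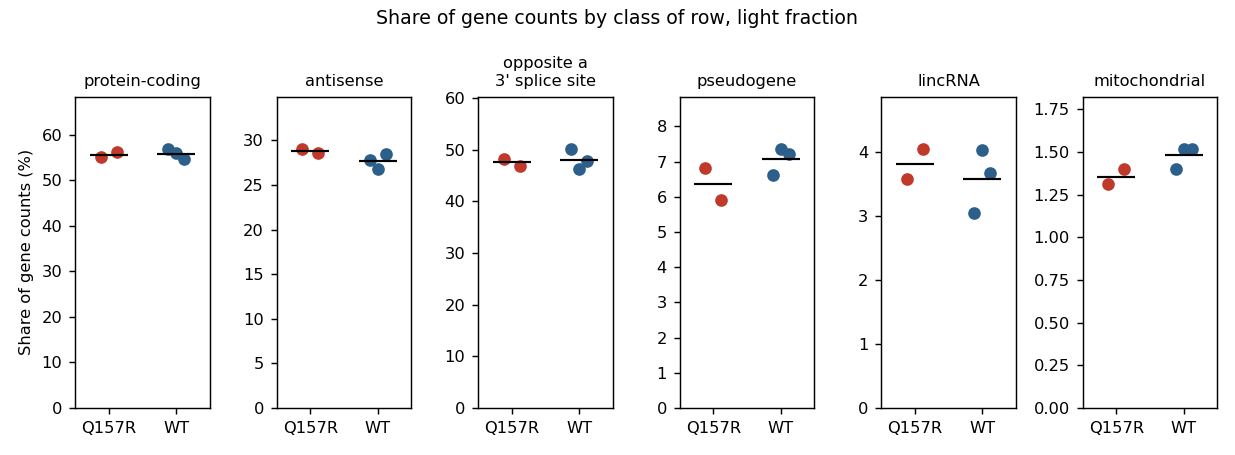
Share of gene counts (y axis, percent, each panel from 0) in 6 classes of rows, Q157R at left (2 libraries) and WT at right (3 libraries), with points for libraries and bars for means. Antisense rows are at 29.1% and 28.6% in Q157R and 26.8% to 28.5% in WT, and in the other 5 panels the groups overlap.

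Of the 338 lower rows, 57.1% were protein-coding and 25.4% antisense, against 56.8% and 23.4% of the 4194 tested rows of the kept set. Rows that face another gene made up 85.8% of the lower and 74.5% of the higher rows, against 80.0% of the tested rows. Exon starts of facing genes lay in 128 (37.9%) of the lower rows and 18 (38.3%) of the higher rows, against 34.3%. The first exon base was G at 54.7%, A at 19.6%, C at 15.1% and T at 10.6% of the 265 exon starts opposite lower rows. Opposite higher rows it was G at 46.2% and A at 25.6% of 39 exon starts, against G at 49.4% and A at 23.2% of 2989 opposite all tested rows of the kept set. These shares describe annotated exon starts, with no test, since the rows were picked by the contrast.

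The targeted gene's own row could not be read in this fraction. U2AF1 had 0 counts in all 5 light libraries, and so did U2AF2, which allows up to 61.7 and 22.2 CPM in Q157R libraries and 12.2 to 35.9 CPM in WT libraries at 3 counts per library. Among 17 genes of the U2AF family and its 3' splice site partners, 2 rows were tested and 0 called, against 7.6% of all tested rows. Nothing is read from 2 rows. PUF60, a U2AF2-related splicing factor, had 0 and 0 counts in Q157R libraries, against 8, 39 and 0 in WT libraries. SF1, the branch point protein, had 10 and 0 in Q157R libraries, against 2, 6 and 0 in WT libraries. In both rows the groups overlapped. Of 15 U2 snRNP proteins 1 row was tested, and its leading rows DDX42 and SF3B6 held 22 counts at most in any light library.

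Other lists of splicing and RNA-binding genes gave no called row in the kept set, against 9.18% of its tested rows. Nothing is read from these small lists. SR proteins had 6 tested rows with a median log2 fold change of -1.69, against -1.19 over all tested rows, and summed to 2 and 9 counts in Q157R libraries, against 17, 91 and 58 in WT libraries. SRSF10 and SRSF5, the leading rows, each owed their WT level to 1 library, with 39 and 70 counts there. The hnRNP proteins had 6 tested rows and a median of -1.66. HNRNPU had 3 and 19 counts in Q157R libraries, against 10, 128 and 57 in WT libraries, and HNRNPAB had 1 and 83 in Q157R libraries, against 6, 68 and 9 in WT libraries. Stress granule proteins had 3 tested rows, led by ATXN2 and FXR2, with a median of -0.24. Spliceosomal small RNAs had none tested and 1 count in all 5 libraries together.

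Lists of the blood lineage were also without calls, against 7.6% of all tested rows. With so few tested rows per list, nothing is read from this. Erythroid and megakaryocyte transcription factors had 6 tested rows with a median log2 fold change of -2.05, and GATA2, which leads them, had 8 and 74 counts in Q157R libraries, against 30, 109 and 63 in WT libraries. FLI1 had 5 and 13 in Q157R libraries, against 0, 56 and 57 in WT libraries. Erythroid surface and membrane skeleton genes had 6 tested rows with a median of -1.39. SPTB, the erythroid beta spectrin, had 1 and 22 in Q157R libraries, against 5, 155 and 114 in WT libraries (edgeR adjusted p = 0.0754). RHD was the other leading row. Globin genes summed to 0 and 0 counts in Q157R libraries, against 5, 58 and 0 in WT libraries, all of them in HBQ1 and HBB. Heme synthesis (PPOX and ALAS2) and platelet genes (GP6 and GP1BA) had 2 and 7 tested rows. Markers of other cell types were sparse, with 1 tested row each for lymphoid genes (led by CD4) and for monocyte and granulocyte genes (CSF3R, CD68), and 4 for stromal and epithelial genes. KRT18, which faces KRT8, had 18 and 110 counts in Q157R libraries, against 5, 41 and 43 in WT libraries (edgeR adjusted p = 0.0655), and no overlap.

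The calls of the next 3 lists in the kept set were all lower in Q157R. Among snoRNA host genes 3 of 9 tested rows were called, with a list median of -4.08, against 6.25% of all tested rows called lower and a median of -1.19. SNHG7 had 0 and 0 counts in Q157R libraries, against 11, 80 and 40 in WT libraries, at least 16.9-fold lower (edgeR adjusted p = 0.00136). RACK1, a scaffold of the small ribosomal subunit, had 0 and 0 in Q157R libraries, against 11, 50 and 41 in WT libraries, at least 13.2-fold lower (edgeR adjusted p = 0.00702), and GNL3 is given above. Nuclear-retained lncRNAs had 2 of 5 tested rows called. HCG18 had 0 and 0 in Q157R libraries, against 25, 59 and 25 in WT libraries, at least 14.1-fold lower (edgeR adjusted p = 0.00301). FTX had 15 and 36 in Q157R libraries, against 50, 173 and 152 in WT libraries (log2 fold change -1.45, SE 0.45, edgeR adjusted p = 0.0378). In these 4 rows the groups did not overlap. The calls of RACK1, HCG18 and FTX were lost without Q157R replicate 3, and that of FTX also without WT replicate 4, under RLE scaling, with the block and without a filter. In a list of known splicing targets of mutant U2AF1, put together from memory, ATG7, an enzyme of autophagy, was the 1 called row of 8 tested. It had 2 and 8 counts in Q157R libraries, against 5, 99 and 68 in WT libraries (log2 fold change -2.58, SE 0.80, edgeR adjusted p = 0.04), and the call was lost under RLE scaling, with the block, without a filter and without Q157R replicate 3, WT replicate 3 or WT replicate 4.

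The lists that follow had no kept row called, against 9.18% of the tested rows of the kept set. Among rows counted in 1 Q157R library, PRC1 of the mitosis genes was called lower. PRPF8 of the myeloid chromatin and cohesin genes was called higher. Cytosolic ribosomal proteins had 11 tested rows of 78 (median -2.56, led by RPL10 and RPS28), translation factors 8 of 38 (median -1.22, led by EIF5B and EIF3H), and DNA replication genes 6 of 36 (led by RFC4 and TYMS). Mitosis genes had 6 tested rows, led by NCAPG and NCAPD2, replication-dependent histones had 4, led by H2BC15 and H4C9, and myeloid chromatin and cohesin genes had 6, led by PRPF8 and TET2. Rows were also counted by the gene that faces them, a grouping added after the data were seen. Of 28 tested rows opposite ribosomal protein genes, 4 were lower, and 1 outside the kept set was higher. Opposite nuclear-retained lncRNAs 3 of 28 were lower, and opposite the splicing targets listed from memory 2 of 11. Opposite hnRNP genes 0 of 14 were called, and opposite SR genes 0 of 3. Over all tested rows 6.25% were lower and 1.35% higher, and nothing is read from these small counts. Mitochondrial mRNAs summed to 455 and 1546 counts in Q157R libraries, against 986, 3803 and 2093 in WT libraries, and 0 of 12 tested rows were called. Among them MT-ND5 had 91 and 242 counts in Q157R libraries, against 94, 588 and 346 in WT libraries.

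The light fraction was next set against the heavy fraction, to ask which rows differed between genotypes in the light piece beyond the heavy one. The difference of the log2 fold changes passed the test in 63 of 6833 rows (0.922%), 5 upward and 58 downward, with 1374 at an unadjusted p under 0.05 and a median of -1.13. SEC22C had a difference of -9.53 (SE 1.5, edgeR adjusted p = 0.00053) and PKD2L2 one of -9.36 (SE 1.6, edgeR adjusted p = 0.00195), with Q157R and WT levels alike in the heavy fraction (heavy log2 fold changes -0.06 for each). ITGB8, an integrin subunit, had 0 and 0 light counts in Q157R libraries, against 2, 65 and 35 in WT, and 7 and 98 heavy counts in Q157R, against 7, 7, 85 and 68 in WT (difference -9.11, SE 2.2, edgeR adjusted p = 0.0311). FBXL2, an F-box protein that faces UBP1, had 0 and 0 light counts in Q157R, against 5, 75 and 8 in WT, and 23 and 91 heavy counts in Q157R, against 12, 5, 135 and 59 in WT (difference -8.96, SE 2.2, edgeR adjusted p = 0.0311). For all 4 the sizes depend on the prior count, since the light Q157R counts are 0.

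CLK3 and MYCBP2-AS1 gave differences with counts in every library. CLK3 had 90 and 486 heavy counts in Q157R libraries, against 127, 84, 1461 and 1143 in WT libraries, and a light minus heavy difference of -2.11 (SE 0.54, edgeR adjusted p = 0.0381). MYCBP2-AS1 had 24 and 164 heavy counts in Q157R libraries, against 31, 38, 152 and 101 in WT libraries, and a difference of -4.47 (SE 0.87, edgeR adjusted p = 0.00574). WNT2B gave -3.77 (SE 0.94, edgeR adjusted p = 0.0323), and ZACN gave -2.14 and missed the threshold (SE 0.62, edgeR adjusted p = 0.0678). The call of CLK3 was kept in 4 of 10 alternatives, and was lost without Q157R replicate 3, WT replicate 3 or WT replicate 4, under RLE scaling, with DESeq2 and without a filter (highest adjusted p 0.33). That of WNT2B was kept in 6 of 10, and was lost without Q157R replicate 3 (adjusted p 0.263) or WT replicate 3, under RLE scaling and without a filter. MYCBP2-AS1 lost its call without a filter only (adjusted p 0.0569). Upward, DST had a difference of 13.1 (SE 3.1, edgeR adjusted p = 0.0304) and MROH1 one of 3.43 (SE 0.90, edgeR adjusted p = 0.0433). Both upward calls were lost without light Q157R replicate 3, that of DST also without WT replicate 3 and that of MROH1 without WT replicate 2 or 4. Those of ITGB8 and FBXL2 were lost without Q157R replicate 3, without WT replicate 3 and under RLE scaling. The count of 63 became 707 without light Q157R replicate 2, 40 without light Q157R replicate 3 and 129 without light WT replicate 2.

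**Figure D5:**
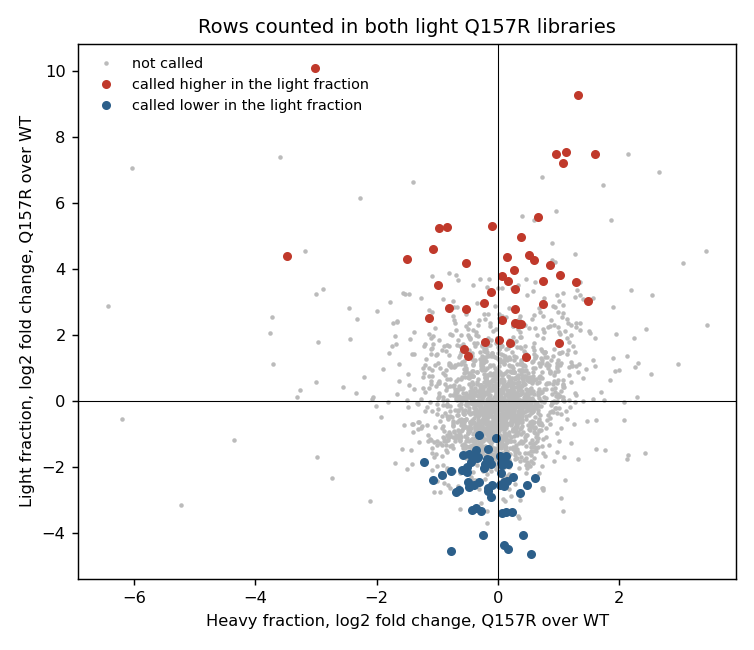
Log2 fold change of Q157R over WT in the heavy fraction (x axis) and in the light fraction (y axis) for rows counted in both light Q157R libraries; large points were called in the light fraction, higher or lower in Q157R, and small grey points were not. The 61 lower rows lie between -4.64 and -1.03 on the light axis, with a heavy median of -0.17.

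Setting the light counts against RNA-seq of the same lines gave 19 called rows of 19059 (0.0997%), 12 upward and 7 downward. Light counts and RNA counts of a row may come from opposite strands, as described above, so the difference compares rows and not transcripts. HADHA had the lowest adjusted p of the upward rows named by the rule, with a light minus RNA difference of 13.9 (SE 2.2, edgeR adjusted p = 0.00613), followed by DST with 12.9 (SE 2.2, edgeR adjusted p = 0.0137). PACS1, a sorting protein, had 1 and 90 light counts in Q157R libraries, against 0, 0 and 0 in WT libraries, and 50.3 CPM in Q157R RNA-seq against 45.1 CPM in WT RNA-seq (difference 11.9, SE 2.5, edgeR adjusted p = 0.0494). Downward, SEC22C gave -12.1 (SE 2.1, edgeR adjusted p = 0.00973), PKD2L2 -11.8 (SE 2.4, edgeR adjusted p = 0.0494) and GABRA3 -11.5 (SE 2.2, edgeR adjusted p = 0.0409). FBXL22, an F-box protein, had 0 and 0 light counts in Q157R libraries, against 15, 65 and 38 in WT libraries (difference -11.6, SE 2.5, edgeR adjusted p = 0.0494). No named row of this comparison was called without Q157R replicate 3, and the count of 19 became 0 without that library, 211 without Q157R replicate 2, 34 without WT replicate 2, 9 without WT replicate 3 and 4 without WT replicate 4.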

How the data were processed

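The values used were raw read counts per annotated gene, as deposited by the authors, for 17 freCLIP and 10 RNA-seq libraries. Per the submitters' processing notes the tools included cutadapt, STAR 2.7.0f and 2.5.3a, HISAT2, HTSeq and SAMtools with build GRCh38.p10, and the role of each is not given in the sources used here. Reads that named no gene (unmapped, multimapping, no feature, ambiguous) were left out, so that gene counts were 0.856% to 1.54% of the reads of the 5 light libraries. No molecular identifiers enter the counts, so copies of 1 molecule may be counted more than once. Limits from 3 counts take each count as a separate molecule, so they may be too tight. Symbols, classes and coordinates came from GENCODE 29, which matched 58084 of 58347 rows.

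Tests used edgeR 4.0.16 (TMM, filterByExpr with a minimum count of 10, robust quasi-likelihood) on all 17 freCLIP libraries in 6 groups, or jointly with the RNA-seq libraries, with Benjamini-Hochberg adjustment over all rows tested and a threshold of 0.05. The row rule was applied after the fit. The script was tested on simulated data. Alternatives were RLE scaling, DESeq2 1.42.0, other sets of libraries, no filter, voom (limma 3.58.1) and leaving out each light library. Class shares used a two-sided exact permutation test. Members and lists were chosen with earlier results of these data known. The naming rule took U2AF1 and U2AF2, up to 10 rows per direction with the largest changes among kept, called rows without overlap, clone names or pseudogenes, 4 per direction in the differences, the 5 most abundant rows, and per list up to 3 called rows or the 2 most abundant. Results for some genes of the lists are not reported here.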

Additional observations from a re-analysis of the deposited data

Results flagged for a closer look

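The 9 rows below were picked out because the Q157R effect differed between the light and heavy fractions by a test of the difference itself (edgeR). The light minus heavy difference of the log2 fold changes was 13.1 for DST, 3.43 for MROH1, -9.53 for SEC22C, -9.36 for PKD2L2, -9.11 for ITGB8, -8.96 for FBXL2, -4.47 for MYCBP2-AS1, -3.77 for WNT2B and -2.11 for CLK3. The edgeR adjusted p ran from 0.00053 for SEC22C to 0.0433 for MROH1. SEC22C and PKD2L2 kept the call under all alternatives run for this difference, and MYCBP2-AS1 lost it without a filter only. The other 6 lost it without light Q157R replicate 3. DST lost it also with DESeq2 and without WT replicate 3, MROH1 without a filter and without WT replicate 2 or 4, and ITGB8, FBXL2, WNT2B and CLK3 with RLE scaling, without a filter and without WT replicate 3. CLK3 lost it also with DESeq2 and without WT replicate 4.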

How the results depend on the processing

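For the 519 rows called in the light fraction, the count was 833 with DESeq2, 263 without a filter on low counts, 333 with the replicate block, 20 with the 8 light libraries and 0 with the 5 compared libraries, and 137 to 1318 when a light library was left out. For the 385 kept rows it was 644 with DESeq2, 136 without a filter, 235 with the replicate block, 14 and 0 with fewer libraries in the same order, 632 with the rows counted in 1 library removed before the fit, and 67 to 584 when a library was left out. For the 63 rows of the light minus heavy difference it was 209 with DESeq2, 19 with RLE scaling, 17 without a filter and 40 to 707 when a library was left out. For the 19 rows of the light minus RNA difference it was 196 with DESeq2, 4 with RLE scaling, 0 without a filter, 46 with the replicate block, 77 with voom and 0 to 211 when a library was left out. Fewer rows were tested in the fits of fewer libraries, and otherwise the cause was not tested. Deviations of same-numbered libraries from their group means had weak correlations, all positive, of 0.001764 to 0.1454 over 13 pairs. For the 2 light Q157R and WT pairs they were 0.01708 and 0.02278, and for differently numbered pairs they ran from -0.1691 to 0.1338. The reported fit did not take the numbers to pair samples, and the replicate block gives the counts if they do.

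The pseudogene share difference of -0.695 percentage points was -1.2 without the 10 most abundant rows and -1.15 to -0.241 when a library was left out, and the mitochondrial one of -0.128 was -0.0347 without those 10 rows. Log2 fold changes near 0 turned sign in 3 abundant rows. TTI2 was 0.299 with RLE scaling and with DESeq2, 0.152 with the rows of 1 library removed and 0.07 with 5 libraries. LENG9 was 0.0443 with RLE, 0.0447 with DESeq2 and -1.54 to 0.217 when a light library was left out, above 0 without Q157R replicate 2. AC006064.4 was 0.276 with RLE, 0.274 with DESeq2, 0.0943 with the rows of 1 library removed, 0.0319 with 5 libraries, 0.277 with the replicate block and -0.533 to 0.21 when a light library was left out, above 0 without WT replicate 3 (0.031) or 4. Of 856 comparisons of a single row's value with an alternative, 646 kept direction and call, 192 lost the call, 4 gained one and 14 turned sign. Called rows to which DESeq2 gave no adjusted p are among those lost. At these depths, by counting error alone, a row at 0 in both Q157R libraries was below 61.7 CPM in replicate 2 and 22.2 CPM in replicate 3. The spread between libraries and repeated counting of 1 molecule are not in these limits.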
